A study of Homo sapiens with 6 samples.

Results

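The 77 genes described here encode proteins of the cytosolic ribosome, and their mRNAs were followed in MV4-11 cells treated with venetoclax, CSA or both drugs. They were chosen by name from the 20263 genes of the deposited count table: protein-coding symbols made of RPS or RPL and a number, with or without a final A, together with RPS4X, RPSA and the P stalk genes RPLP0, RPLP1 and RPLP2. Pseudogenes, the RPS6 kinases and paralogs whose names end in L or L1 were left out by that rule. The set holds 31 genes for the small 40S subunit and 46 for the large 60S subunit. The naming rule uses no measured value, though it was chosen with earlier results of these data known. All 77 passed the filter on low counts, as did 12690 genes in all.

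MV4-11 is a human acute myeloid leukemia line with a KMT2A fusion and an internal tandem duplication in the receptor kinase gene FLT3; the labels give its genotype as WT, and every group is this single line. Venetoclax blocks the survival protein BCL2, and CSA (cyclosporine A) binds cyclophilins and inhibits calcineurin. Cells were cultured for 24 h with venetoclax at 100 nM, CSA at 2.5 µM or the combination, whose doses are not stated separately, with 2 libraries per group and 6 in all. Untreated cells were not analysed here, so each value is relative to another treated group, and no drug interaction was tested. The labels do not say whether the libraries of a group are separate cultures; p-values therefore cover only the spread between these libraries, which may be technical.

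A ribosome is built from ribosomal RNA and these proteins, most of them present as a single copy. The 40S subunit binds mRNA and reads its codons, and the 60S subunit joins amino acids at the peptidyl transferase centre and passes the chain through an exit tunnel. Most ribosomal protein mRNAs start with a cytosine followed by a run of pyrimidines, the terminal oligopyrimidine or TOP motif, through which mTOR signalling and the RNA-binding protein LARP1 control their translation and stability. Ribosomal protein mRNAs are among the most abundant messages of a dividing leukemia cell.

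The TOP motif is shown at an annotated start of members whose values are discussed most, because most members with a listed start have it. RPL10 has other listed starts, which lack the motif and are not printed. Each line gives 30 bases of GRCh38.p14 from RefSeq, 5′ to 3′ on the gene's strand: 15 bases before the start site and the first 15 of the transcript. Capitals mark the tract, a C at the start and every C or T that follows it without a break. A tract shorter than the minimum used for the counts in the next paragraph is left in small letters.
RPS6, chr9:19380222-19380251, minus strand: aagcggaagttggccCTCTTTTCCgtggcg
RPS10, chr6:34426055-34426084, minus strand: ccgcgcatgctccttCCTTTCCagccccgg
RPS14, chr5:150449725-150449754, minus strand: ccgccccctcccactCTCTCTTTCCggtgt
RPS25, chr11:119018329-119018358, minus strand: tctgagcagcgcttcCTTTTTgtccgacat
RPL10, chrX:154398362-154398391, plus strand: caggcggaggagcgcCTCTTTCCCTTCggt
RPL13A, chr19:49487593-49487622, plus strand: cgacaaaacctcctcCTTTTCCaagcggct
RPL24, chr3:101686704-101686733, minus strand: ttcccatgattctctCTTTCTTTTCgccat
RPL36A, chrX:101390996-101391025, plus strand: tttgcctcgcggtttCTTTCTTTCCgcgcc
RPLP0, chr12:120201097-120201126, minus strand: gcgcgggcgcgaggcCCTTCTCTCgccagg
RPLP1, chr15:69452803-69452832, plus strand: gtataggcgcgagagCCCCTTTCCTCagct
The next pair comes from members without a tract of that minimum length, and therefore has no capitals. RPS26 starts with a G, and the tract of RPL3 is too short.
RPS26, chr12:56041903-56041932, plus strand: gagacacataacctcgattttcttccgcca
RPL3, chr22:39319609-39319638, minus strand: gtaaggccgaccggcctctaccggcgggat

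Starts were listed in RefSeq for 62 of the 77 members, and 46 of these 62 (74.2%) had at least 1 start with a C followed by 4 or more C or T. The same held for 1404 of 27305 genes in the whole promoter table (5.14%). Counted over start sites, the share was 59.7% of 77 member starts and 4.07% of 35116 starts in all. The tract of the members that had it was 8 bases long at the median. The motif CCGGAA, searched on both strands from 250 bases before to 50 after a start, was found for 56.5% of the members and 20.1% of all genes, and AAGATGG for 12.9% and 7.11%. TATAAA was found at 6.49% of member starts and 11.5% of all starts. None of these strings contains another, and a match is a string in this window, not a binding site.

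Total counts per library lay between 26567900 and 30738957. Venetoclax replicate 2 stood apart: 41.5% of its counts were mitochondrially encoded, against 7.41% to 15.2% in the other 5 libraries, and its trimmed mean of M-values (TMM) scaling factor was 0.657 against 1.02 to 1.12. Where medians over the members, role groups or related lists are reported, those of the comparisons with venetoclax are therefore given with and without it. Combination replicate 2 had the next highest mitochondrial share, 15.2%. Replicate 2 exceeded replicate 1 in each group: 41.5% over 8.01% (venetoclax), 9.71% over 7.41% (CSA) and 15.2% over 8.06% (combination). Of 10 marker genes of the line, 9 exceeded 1 CPM (counts scaled to a common library size with TMM), and CD14 was at 0 to 0.407 CPM. Their summed level was 1778 to 1933 CPM in the 6 libraries. CD3D, CD3E and CD3G of T cells, HBB and HBA1 of red cells, and EPCAM and CDH1 of epithelium were at 0 in all libraries; the B cell markers summed to 1.78 to 3.42 CPM and the fibroblast markers to at most 0.210.

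Ribosomal protein mRNAs took a smaller share of the counts with venetoclax alone than in the other groups. The 77 genes held 6.48% and 2.94% of all counts under venetoclax, 7.44% and 6.76% under CSA, and 7.29% and 6.02% under the combination. Both venetoclax libraries lay below both CSA libraries, while the venetoclax and combination groups overlapped. Of the counts of nuclear genes alone they held 7.04% and 5.02% under venetoclax, 8.03% and 7.49% under CSA, and 7.93% and 7.10% under the combination; on that base the venetoclax libraries were the lowest of the 6. The mean share of nuclear counts was 6.03% ± 1.43 (SD, n = 2) with venetoclax, 7.76% ± 0.386 with CSA and 7.52% ± 0.592 with the combination. A two-sided exact permutation test gave p = 0.33 for venetoclax against CSA and for the combination against venetoclax, the smallest p that 2 libraries against 2 allow, and p = 0.667 for the combination against CSA. Over all counts the exact permutation p was 0.33, 0.667 and 0.667 in the same order. The exact (Clopper-Pearson) 95% interval of each share is within 0.011 percentage points of it and covers counting error only. In bulk RNA, fewer cells with these mRNAs and less of them per cell cannot be told apart.

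**Figure D1:**
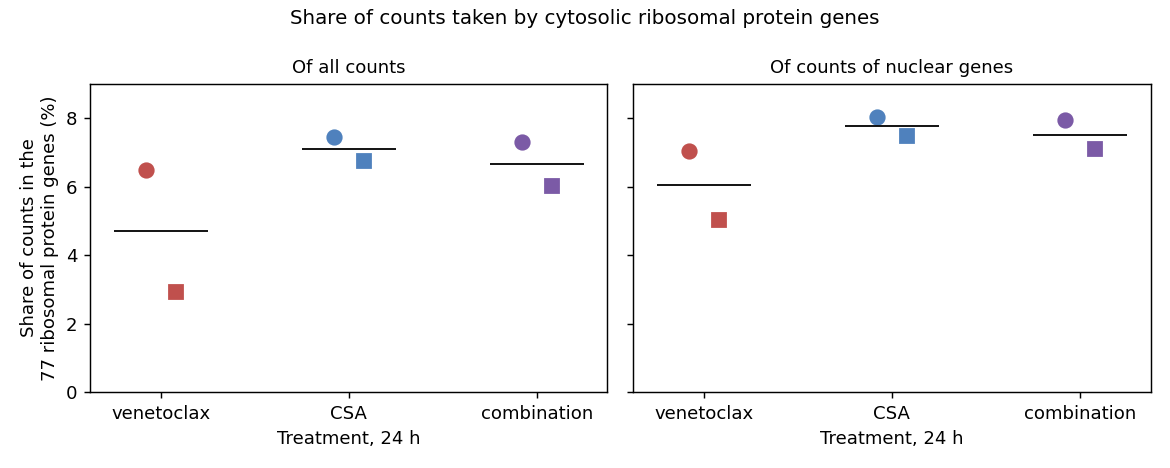
Share of counts (%) held by the 77 ribosomal protein genes, of all counts (left) and of counts of nuclear genes (right), by treatment. Circles are replicate 1, squares replicate 2 and lines group means of 2 libraries; venetoclax replicate 2 is lowest at 2.94% and 5.02%, and venetoclax replicate 1 lies below both CSA libraries in both panels.

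The subunits kept a similar balance. The ratio of summed 40S to summed 60S counts was 0.569 and 0.635 under venetoclax, 0.595 and 0.586 under CSA, and 0.582 and 0.587 under the combination. The 4 libraries with CSA lay close together, and the venetoclax libraries held the lowest and the highest ratio. The mean ratio was 0.602 with venetoclax, 0.591 with CSA and 0.584 with the combination. A two-sided exact permutation test gave p = 1.0 for the combination against venetoclax and for venetoclax against CSA, and p = 0.667 for the combination against CSA.

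Levels between genes were compared only per kilobase of transcript. On the mean CPM over 6 libraries per kilobase of model transcript (GENCODE 29), RPL13A at 2416 and RPS2, an mRNA channel protein, at 2033 were among the highest. The lowest were RPL37 at 101, RPL37A at 134 and RPS19 at 178, whose models are long for a ribosomal protein mRNA: 7686, 3647 and 2359 bases, against a median of 815 bases over the members. Per kilobase of coding sequence RPL41, the smallest protein of the set, was highest at 11593 and RPL13A was at 4685, and RPS21 (532), RPS15 (555) and RPL34 (557) were lowest. RPL37 was then at 2656 and RPL37A at 1769. Which genes are lowest thus depends on the length used, while RPL13A was among the highest 3 on both scales. In CPM, 76 of the 77 members exceeded 100 in every library.

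Single members varied little among 5 of the libraries and more in venetoclax replicate 2. The highest CPM of a member over its lowest was 1.72 at the median over all 6 libraries and 1.27 without venetoclax replicate 2. That library held the lowest value of 58 of the 77 members, and venetoclax replicate 1 that of 10. RPL10, a 60S protein beside the peptidyl transferase centre that is added late in assembly, spanned the widest range, with 695 and 215 CPM under venetoclax, 907 and 620.5 CPM under CSA, and 852 and 557 CPM under the combination. It was lowest in venetoclax replicate 2, and its other 5 libraries spanned 1.63 times. RPS9 (3.38 times), RPL13 (3.14 times) and RPL8 (2.92 times) followed over 6 libraries. Over the 5 libraries the widest ranges were those of RPLP1 (2.05 times), RPS3A (1.87 times), RPS12 (1.82 times) and RPS21 (1.78 times).

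**Figure D2:**
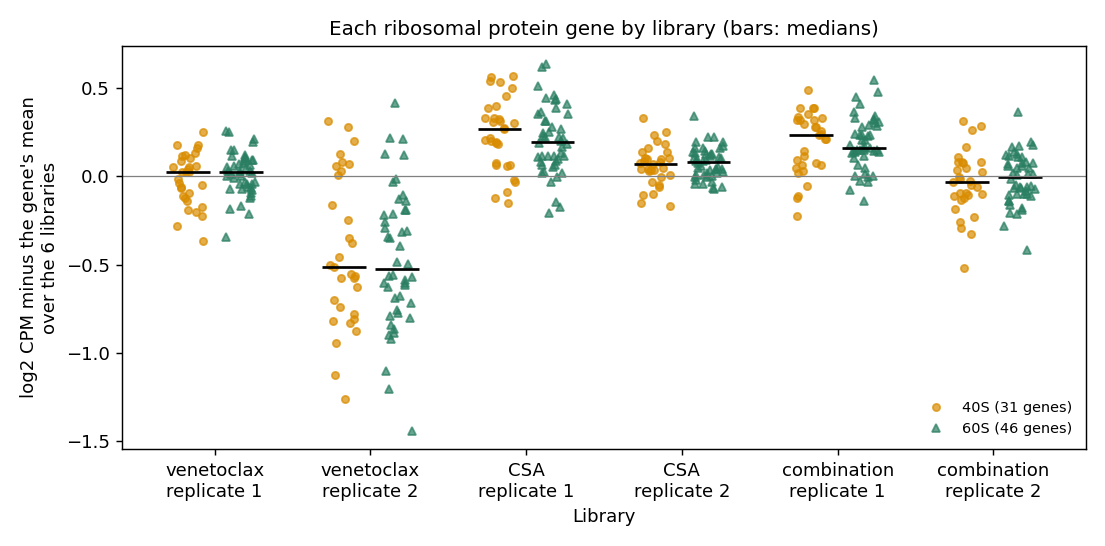
Level of each ribosomal protein gene in each library, as log2 CPM minus the gene's mean over the 6 libraries; orange circles are the 31 genes of the 40S subunit, green triangles the 46 of the 60S subunit, and bars are medians. Most points of venetoclax replicate 2 lie under 0 (median over the 77 genes −0.51), with a spread from −1.44 to 0.41.

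Differences between the 2 libraries of a group ran in the same direction for most members. With venetoclax, 61 of 77 were lower in replicate 2 (median log2 ratio of replicate 2 to replicate 1 −0.54), with CSA 60 (−0.12) and with the combination 63 (−0.22). In all 3 groups 51 members were lower and 7 higher in replicate 2, whereas the median over 12455 genes was 0.01 with venetoclax, 0.01 with CSA and −0.0025 with the combination. Those higher included RPL24, RPL28, RPL36A, RPS24, RPS25 and RPS26. RPL24, which sits at the bridge between the subunits, was at 595 and 918 CPM under venetoclax, 597 and 679 CPM under CSA, and 626 and 774 CPM under the combination. RPLP1, of the P stalk that recruits translation factors, went the other way, with 582 and 282 CPM under venetoclax, 746 and 495 CPM under CSA, and 601 and 365 CPM under the combination. All 3 libraries numbered 2 were above all 3 numbered 1 for RPL24 and below them for RPLP1. Nothing in the labels ties libraries of the same number to each other. Replicate 2 also had the larger mitochondrial share of counts in every group. Whether that share is related to the members' replicate differences was not tested.

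Across the 77 members the replicate difference in CSA and that in the combination correlated at r = 0.82 (Spearman's rho 0.85). Venetoclax and CSA gave r = 0.54 (rho 0.54), and venetoclax and the combination r = 0.60 (rho 0.62). Over 8028 nuclear genes at 10 CPM or more in every library, rho was 0.50, 0.52 and 0.57 in the same order. These are descriptions across genes of the same 6 libraries, which share depth and base composition and are not independent replicates. With the GC content of the model transcript, the replicate difference of venetoclax had rho −0.47 over the members and −0.63 over 8026 genes. In CSA and the combination the members' rho was −0.12 and −0.03, and that over the 8026 genes −0.31 and −0.22.

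**Figure D3:**
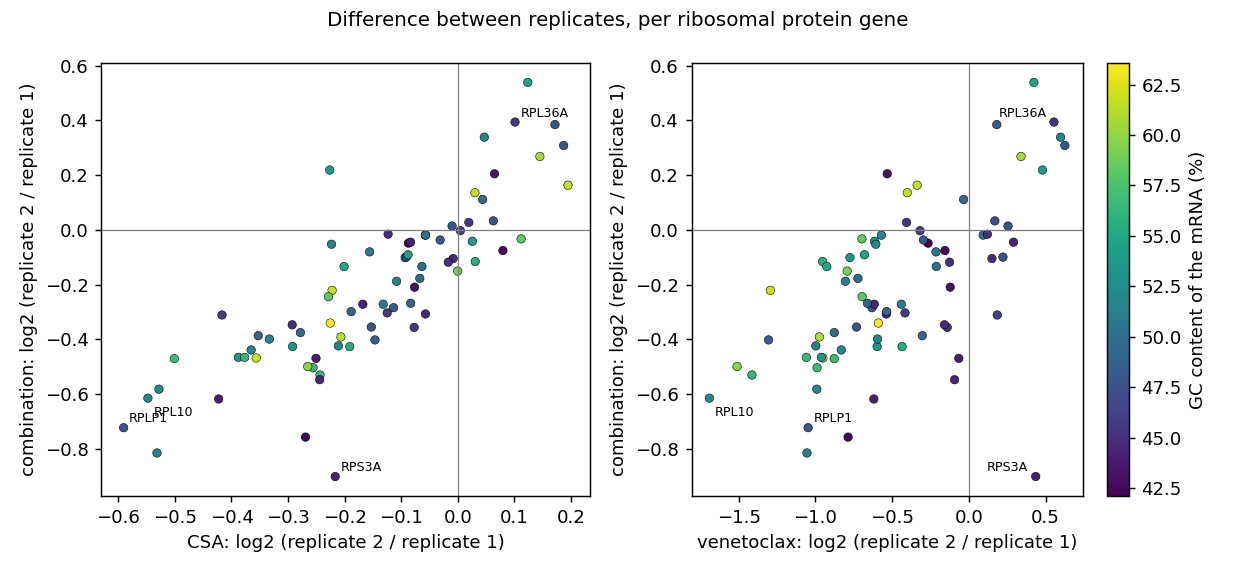
Log2 ratio of replicate 2 to replicate 1 for each of the 77 ribosomal protein genes, combination against CSA (left) and combination against venetoclax (right), coloured by GC content of the mRNA (%). The points follow a rising line on the left (r = 0.82) and a looser one on the right (r = 0.60); RPL10 and RPLP1 are low in replicate 2 of every group and RPL36A is high.

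Treatments were compared in one edgeR quasi-likelihood fit of the 6 libraries over 12690 genes, with Benjamini-Hochberg adjustment over all of them and a threshold of 0.05. The 3 contrasts share libraries, so their values are not independent of each other, and the members were chosen with earlier results of these data known. None of the 77 members was called in any of the 3 contrasts, where 0.0% of all genes were called as well. DESeq2 and limma-voom called 0 members too, but the share of all genes that they called is not reported here. At an unadjusted p under 0.05 edgeR had 0 members for the combination against venetoclax (10.8% of all genes), 0 for the combination against CSA (3.64%) and 1, RPS10, for venetoclax against CSA (4.8%). The median SE of a member's log2 fold change was 0.24 in each contrast, and at that SE differences of the size seen here were not detectable. The contrasts share one estimate of the spread, so an SE also reflects libraries outside its contrast. For the combination against CSA the median SE was 0.13 with either venetoclax library left out.

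Set against venetoclax alone, the combination had higher values for most members. The log2 fold change was positive for 73 of 77, against 49.1% of all genes, with a median of 0.30 and a range of −0.16 to 0.63; the median over all genes was −0.01. In 22 members (28.6%) both combination libraries were above both venetoclax libraries, as in 19.2% of all genes, and in 0 members were both below (18.9% of all genes). RPL10 had the highest fold change (0.63, SE 0.56), followed by RPL13 (0.54, SE 0.46), RPS10 (0.53, SE 0.23) and RPL7A (0.53, SE 0.28). RPS29 (−0.16, SE 0.21), RPL24 (−0.11, SE 0.25), RPL27 (−0.07, SE 0.16) and RPS28 (−0.06, SE 0.22) were lowest. The smallest adjusted p was 0.491, for RPS10 by edgeR's quasi-likelihood test with Benjamini-Hochberg adjustment.

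Much of that difference came with venetoclax replicate 2. Venetoclax replicate 1 was below both combination libraries in 30 members (38.96%), near the 36.5% of all genes, and replicate 2 in 62 (80.5%; 44.3% of all genes). Without the latter the median was 0.08 and 59 of 77 fold changes were positive (50.9% of all genes), and edgeR called 0 members against 0.379% of 12940 genes. A replicate block put that median at 0.16, and at 0.32 in the 6 libraries. Without venetoclax replicate 1 instead, so that venetoclax replicate 2 stood alone for its group, the median was 0.58 and 32 members were called, all higher, when 13.1% of 12956 genes were called higher. RPL10 was at 0.02 without venetoclax replicate 2 and RPL13 at 0.00, so that those with the highest values of the fit of 6 libraries did not stay high. RPL36A then had the highest value (0.53, SE 0.18). The library left out was the higher of its venetoclax pair (399.7 and 587 CPM), and leaving it out raises this value. Under both drugs RPL36A was at 497 and 653 CPM. In that fit 3 members, RPL36A, RPL26 and RPS4X, had an unadjusted p under 0.05, against 15.5% of all genes; none passed adjustment (smallest edgeR adjusted p = 0.28).

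The single agents differed most, in the direction of lower values with venetoclax than with CSA. The log2 fold change was negative for 69 of 77 members, against 50.2% of all genes, with a median of −0.36 and a range of −0.75 to 0.25. In 45 members (58.4%) both venetoclax libraries lay below both CSA libraries, as in 19.9% of all genes, and in 0 members both lay above (20.8%). Lowest were RPL10 (−0.75, SE 0.56), RPS14 (−0.71, SE 0.38), RPL3 (−0.70, SE 0.32) and RPS10 (−0.69, SE 0.23); highest were RPL24 (0.25, SE 0.25), RPS25 (0.17, SE 0.25), RPL28 (0.16, SE 0.20) and RPS28 (0.09, SE 0.22). The smallest adjusted p by edgeR with Benjamini-Hochberg adjustment was 0.633.

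Venetoclax replicate 1 showed the same direction at a smaller size, but it is 1 library, and its members are not replicates. Its median of −0.15, given below, is near the members' median shift between libraries of the same treatment. That shift, as log2 of replicate 2 over replicate 1, was −0.12 with CSA and −0.22 with the combination. Venetoclax replicate 1 was below both CSA libraries in 55 of 77 members (71.4%), as in 33.4% of all genes, and below all 4 libraries with CSA in 27 (35.1%; 22.2% of all genes). Venetoclax replicate 2 was below both CSA libraries in 64 members (83.1%; 45.5% of all genes), and below all 4 libraries with CSA in 60 (77.9%; 38.4% of all genes). Without replicate 2 the median was −0.15 and 76 of 77 fold changes were negative, against 51.5% of all genes; edgeR called 0 members, and 0.0% of all genes, and RPL3 alone had an unadjusted p under 0.05, against 4.78% of all genes. RPL4 was the exception among the signs, at 0.08. A replicate block put the median without replicate 2 at −0.23, with 72 of 77 negative. Without replicate 1 the median was −0.70 and 38 members were called, all lower, when 16.9% of genes were called lower.

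Between the combination and CSA the members hardly differed. The median log2 fold change was −0.06 (median over all genes −0.0020), with 24 values above 0 (49.7% of all genes) and 53 below (50.3%) and a range of −0.36 to 0.27. The combination libraries were both above the CSA libraries for 8 members, namely RPL4, RPL6, RPL22, RPL26, RPL36A, RPS4X, RPS24 and RPS25 (10.4%; 23.5% of all genes). They were both below for 7, namely RPL3, RPL12, RPL13A, RPL19, RPL35, RPL38 and RPS2 (9.09%; 23.7% of all genes). Highest were RPL36A (0.27, SE 0.24), RPS25 (0.25, SE 0.25), RPS13 (0.18, SE 0.22) and RPL28 (0.17, SE 0.20), and lowest were RPLP1 (−0.36, SE 0.43), RPS14 (−0.32, SE 0.38), RPS2 (−0.31, SE 0.29) and RPS21 (−0.27, SE 0.39). All adjusted p-values of members by edgeR with Benjamini-Hochberg adjustment were 1.00 to 3 digits. The sign of the median depended on which library was left out: leaving out CSA replicate 1 gave 0.02 and leaving out combination replicate 2 gave 0.04, whereas leaving out the other library of each group gave −0.13 and −0.17. Most members were lower in replicate 2 of both groups, so leaving out 1 of these libraries sets unlike replicate numbers against each other. With the replicate number as a block the median was −0.06, with and without venetoclax replicate 2. Among libraries of the same number, the members' share of all counts under the combination was below that under CSA and above that under venetoclax. The labels do not pair such libraries, and without pairing the combination overlapped with both other groups in this share.

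**Figure D4:**
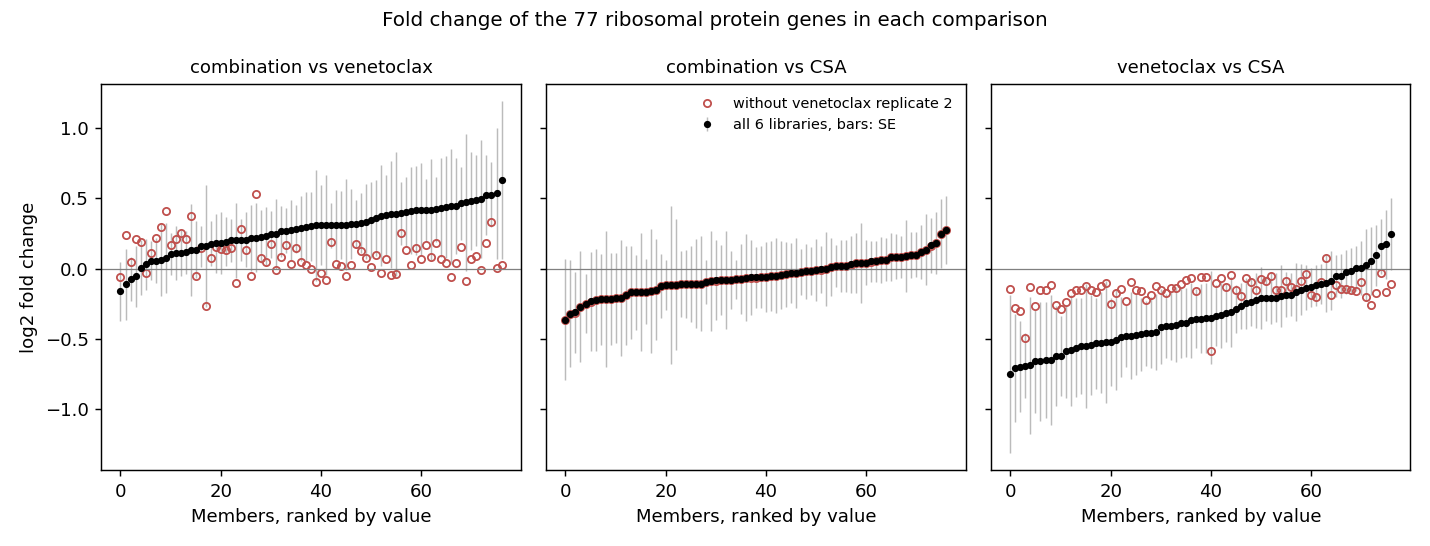
Log2 fold change of each of the 77 ribosomal protein genes in the 3 comparisons, ranked within each panel; black points with bars (SE) are from the 6 libraries and red circles from the fit without venetoclax replicate 2. The black points run from −0.16 to 0.63, from −0.36 to 0.27 and from −0.75 to 0.25; without that library the red circles of the left and right panels gather near 0.08 and −0.15.

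Among the 5 proteins of the mRNA channel and decoding site, RPS2, RPS3, RPS9, RPS15 and RPS23, the median was 0.31 for the combination against venetoclax, −0.12 against CSA and −0.41 for venetoclax against CSA. Leaving out venetoclax replicate 2, the first was 0.05, with 3 of 5 higher, and the last −0.14. RPS2, at the mRNA entry, was at 2017 and 1165 CPM under venetoclax, 2446 and 2445 CPM under CSA, and 2073 and 1868 CPM under the combination. Both combination libraries lay between the CSA libraries and the lower venetoclax library, and venetoclax replicate 1 fell between the combination libraries. Without venetoclax replicate 2 its difference between the combination and CSA was −0.31, SE 0.10 (edgeR adjusted p = 0.381) when 0.185% of all genes were called. RPS3, a channel protein that also has roles in DNA repair, was at 421 and 279 CPM under venetoclax, 514 and 408 CPM under CSA, and 503 and 381 CPM under the combination.

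Proteins of the 40S platform and mRNA exit, among them RPS14, RPS26, RPS28 and RPSA, had log2 fold changes of both signs in the 6 libraries. Medians were 0.20 for the combination against venetoclax and −0.37 for venetoclax against CSA. Without venetoclax replicate 2 they were 0.15, with 3 of 5 positive, and −0.16, with 5 of 5 negative. RPS14, whose loss marks a form of myelodysplastic syndrome, was at 505 and 242 CPM under venetoclax, 689 and 531 CPM under CSA, and 566 and 409.9 CPM under the combination. Both venetoclax libraries were below both CSA libraries, and the combination overlapped with each. RPS26, which contacts mRNA upstream of the start codon, was at 440.0 and 499 CPM under venetoclax, 439.9 and 495 CPM under CSA, and 440.3 and 575 CPM under the combination, with groups that overlap in every comparison. RPS28, its neighbour at the exit, was at 222 and 309 CPM under venetoclax, 268 and 229 CPM under CSA, and 236 and 275 CPM under the combination, highest in venetoclax replicate 2. RPSA, the laminin receptor in an older name, was at 1006 and 609.8 CPM under venetoclax, 1142 and 1091 CPM under CSA, and 1183 and 1046 CPM under the combination, and its venetoclax libraries were the lowest 2.

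Of the other 21 small-subunit proteins, RPS10 came nearest to a difference. Its mRNA (ENSG00000124614) was at 408 and 302 CPM under venetoclax, 609.6 and 534 CPM under CSA, and 586 and 436 CPM under the combination. Both venetoclax libraries were below the other 4, and the log2 fold change was −0.69 against CSA (unadjusted p = 0.0262; adjusted p = 0.633 by edgeR) and 0.53 for the combination against venetoclax. Without venetoclax replicate 2 these were −0.49 and 0.33. The read-through gene RPS10-NUDT3 shares exons with RPS10, so the values of RPS10 are uncertain by the size of its counts. These were 9.41% and 8.25% of those of RPS10 under venetoclax, 4.07% and 0% under CSA, and 4.85% and 4.54% under the combination. The uncertainty is thus largest in the group with the lowest values. Summed, the 2 genes were at 446 and 326 CPM under venetoclax, 634 and 534 CPM under CSA, and 614 and 456 CPM under the combination, with venetoclax still the lowest 2 libraries.

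RPS6, the phosphorylated target of the S6 kinases, was at 1597 and 1434 CPM under venetoclax, 1772 and 1872 CPM under CSA, and 1840.4 and 1747 CPM under the combination. Its venetoclax libraries were the lowest 2, and its highest value was 1.31 times its lowest. RPS25, needed by several viral and cellular internal ribosome entry sites, was at 829 and 1254 CPM under venetoclax, 909 and 939 CPM under CSA, and 969.8 and 1226 CPM under the combination, with the highest value in venetoclax replicate 2 and the lowest in venetoclax replicate 1. RPS4X, encoded on the X chromosome, was at 942 and 1125 CPM under venetoclax, 1047 and 1039.9 CPM under CSA, and 1112 and 1123 CPM under the combination. Venetoclax replicate 1 was the lowest library and venetoclax replicate 2 the highest, and both combination libraries exceeded both CSA libraries.

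RPS19, the gene most often mutated in Diamond-Blackfan anemia, was at 419.8 and 229 CPM under venetoclax, 585 and 413 CPM under CSA, and 509 and 367 CPM under the combination, and its venetoclax and CSA groups overlapped. RPS27, a zinc finger protein of the 40S, was at 646 and 446 CPM under venetoclax, 799.9 and 702 CPM under CSA, and 806 and 655 CPM under the combination, with both venetoclax libraries below the other 4. RPS27A, made as a fusion with ubiquitin, was at 392 and 368 CPM under venetoclax, 471 and 398 CPM under CSA, and 512 and 351 CPM under the combination. RPS27A was thus below CSA in both venetoclax libraries, while its lowest value was in combination replicate 2.

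RPS29, also with a zinc finger, was at 162 and 184 CPM under venetoclax, 209.9 and 157 CPM under CSA, and 171 and 138 CPM under the combination; its groups overlapped in each comparison. RPS13 was at 267 and 217 CPM under venetoclax, 314 and 246 CPM under CSA, and 360.4 and 276 CPM under the combination, and RPS21 at 142 and 71.3 CPM under venetoclax, 188 and 130.4 CPM under CSA, and 158 and 106 CPM under the combination. For RPS13 and RPS21, replicate 2 was below replicate 1 in every group. RPS3A, not among those chosen by rule and named for its spread, was at 363 and 491 CPM under venetoclax, 584 and 502 CPM under CSA, and 609 and 326 CPM under the combination. The lowest of its 6 values was in combination replicate 2 and the highest in combination replicate 1.

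At the peptidyl transferase centre and tRNA sites (RPL3, RPL8, RPL10, RPL10A and RPL36A) the medians were 0.48, −0.12 and −0.65 in the 6 libraries. Leaving out venetoclax replicate 2 brought those of the comparisons with venetoclax to 0.07 and −0.15, close to the medians over all members. RPL3, which reaches the catalytic centre, was at 1931 and 998 CPM under venetoclax, 2347 and 2397 CPM under CSA, and 2136 and 1971 CPM under the combination. Its 3 groups were fully separated, with venetoclax lowest and CSA highest. Without venetoclax replicate 2, venetoclax against CSA was −0.30, SE 0.12 (edgeR adjusted p = 1.00, Benjamini-Hochberg). RPL36A, at the exit site for tRNA, differed from the others of this group: both combination libraries exceeded both CSA libraries, and venetoclax replicate 2, at 587 CPM, was above replicate 1, at 399.7. Counts of the read-through RPL36A-HNRNPH2 were 4.78% to 8.88% of those of RPL36A.

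Of 9 proteins lining the peptide exit tunnel or its mouth (RPL4, RPL17, RPL19, RPL22, RPL23A, RPL26, RPL31, RPL35 and RPL39) all had a positive fold change between the combination and venetoclax (median 0.30) and all a negative one between venetoclax and CSA (median −0.38) in the 6 libraries. With venetoclax replicate 2 left out, 7 of 9 were positive (median 0.08) and 8 of 9 negative (median −0.12). RPL22, whose loss is known in leukemia, was at 607 and 505 CPM under venetoclax, 663 and 624 CPM under CSA, and 701 and 678 CPM under the combination. The groups did not overlap, in the order venetoclax, CSA, combination, with log2 fold changes of 0.31, SE 0.16, for the combination against venetoclax and 0.10, SE 0.16, against CSA. The former was 0.19 with venetoclax replicate 2 left out. RPL39, a short tunnel protein, was at 211 and 137 CPM under venetoclax, 286 and 214 CPM under CSA, and 281 and 183 CPM under the combination, and the venetoclax libraries were both below both CSA libraries. RPL26, at the tunnel mouth and a known binder of the p53 mRNA, was at 590.3 and 655 CPM under venetoclax, 678 and 674 CPM under CSA, and 743 and 691 CPM under the combination; it and RPL4, at 2324 and 1754 CPM under venetoclax, 2176 and 2205 CPM under CSA, and 2216 and 2259 CPM under the combination, were named after their values were seen.

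The P stalk proteins RPLP0, RPLP1, RPLP2 and RPL12, which form the base and arms of the stalk, had medians of 0.33, −0.14 and −0.50 (0.01 and −0.16 in the comparisons with venetoclax when its replicate 2 was left out), and all 4 were lower in replicate 2 than in replicate 1 of every group. RPLP0, the stalk's base and a common reference gene in quantitative PCR, was at 1010.1 and 519 CPM under venetoclax, 1369 and 1047 CPM under CSA, and 1202 and 871 CPM under the combination. Both venetoclax libraries were below both CSA libraries, and the combination overlapped with each. RPLP2 was at 382 and 254 CPM under venetoclax, 424 and 363 CPM under CSA, and 422 and 334 CPM under the combination, with overlap in all comparisons. Without venetoclax replicate 2 the combination differed from venetoclax by 0.04 for RPLP0, −0.26 for RPLP1 and −0.01 for RPLP2.

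RPL5 and RPL11, which with 5S ribosomal RNA bind and inhibit MDM2 when assembly fails, were both lowest in venetoclax replicate 2. RPL5 was at 905 and 829.5 CPM under venetoclax, 991 and 979 CPM under CSA, and 1038 and 956 CPM under the combination, with venetoclax the lowest 2 libraries. RPL11 was at 1014 and 655 CPM under venetoclax, 1131 and 1045 CPM under CSA, and 1136 and 933 CPM under the combination. Both genes' venetoclax libraries were below both CSA libraries, with log2 fold changes of −0.18, SE 0.15, and −0.38, SE 0.25, in turn, and of −0.13 and −0.11 with venetoclax replicate 2 left out.

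The remaining 26 large-subunit proteins had medians of 0.27, −0.05 and −0.26; leaving out venetoclax replicate 2, the first was 0.10 and the last −0.14. RPL13A, a target of interferon-triggered translational control and a common reference gene, was at 2803 and 1832 CPM under venetoclax, 3149 and 3206 CPM under CSA, and 3109 and 3021 CPM under the combination, with venetoclax the lowest 2 libraries. RPL7A was at 1242 and 711 CPM under venetoclax, 1419.8 and 1317 CPM under CSA, and 1498 and 1315 CPM under the combination, again with venetoclax lowest, and RPL13 at 478 and 179.5 CPM under venetoclax, 559 and 472 CPM under CSA, and 564 and 390.4 CPM under the combination. RPL23, another MDM2-binding protein, was at 473 and 579 CPM under venetoclax, 540.3 and 509.9 CPM under CSA, and 556 and 539 CPM under the combination, highest in venetoclax replicate 2. RPL38, tied to translation of homeobox mRNAs in mouse development, was at 278 and 296 CPM under venetoclax, 321 and 308 CPM under CSA, and 301 and 297 CPM under the combination. Its highest value was 1.15 times its lowest.

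RPL41 was at 916 and 499 CPM under venetoclax, 1120.2 and 924 CPM under CSA, and 992 and 765 CPM under the combination, and RPL37 at 790.2 and 547 CPM under venetoclax, 824 and 862 CPM under CSA, and 750.2 and 865 CPM under the combination. RPL37A was at 465 and 417 CPM under venetoclax, 567 and 463 CPM under CSA, and 569.6 and 448 CPM under the combination. In RPL37A and RPL41 the venetoclax libraries held the lowest value. RPL27 was at 564 and 659 CPM under venetoclax, 640.4 and 601 CPM under CSA, and 602 and 562 CPM under the combination, highest in venetoclax replicate 2, and RPL28 at 1026 and 1299 CPM under venetoclax, 989 and 1094 CPM under CSA, and 1060.0 and 1277 CPM under the combination. For RPL27 and RPL28, as for RPL24, the venetoclax libraries spanned most of the range of the other 4.

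**Figure D5:**
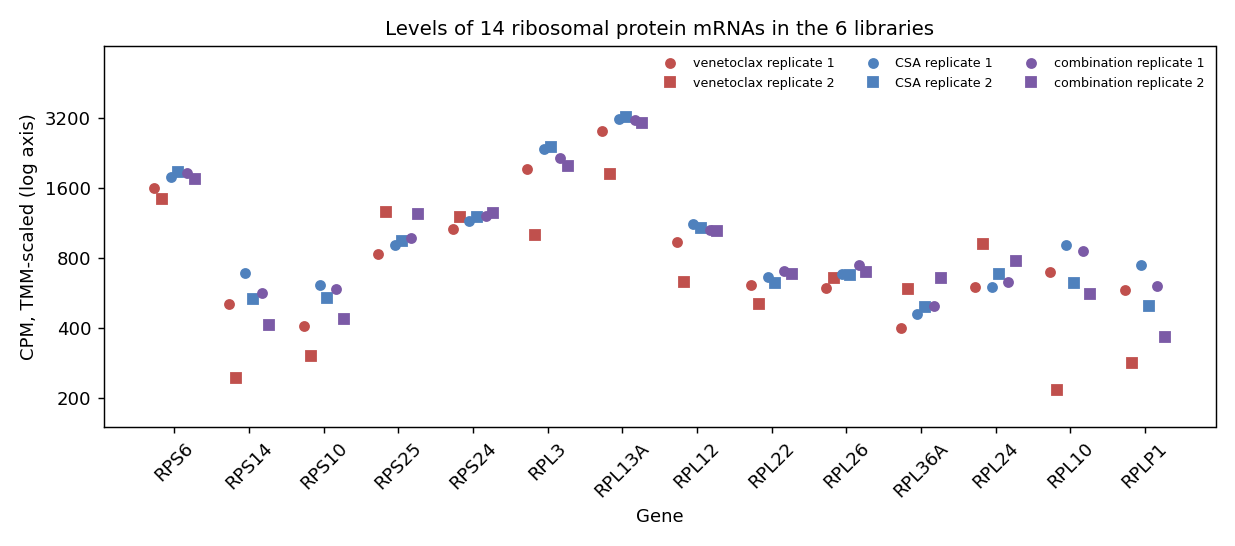
Levels (CPM, TMM-scaled, log axis) of 14 ribosomal protein mRNAs in the 6 libraries; red is venetoclax, blue CSA and purple the combination, circles replicate 1 and squares replicate 2. The red squares of RPL10 (215), RPS14 (242) and RPLP1 (282) lie under all other points of their gene, whereas that of RPL24 (918) lies above them.

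Members with a TOP start and those without one at their listed starts had the same signs. Between venetoclax and CSA the median was −0.43 over 46 members with the motif and −0.24 over 16 without it, and between the combination and venetoclax 0.31 and 0.28. Without venetoclax replicate 2 these were −0.15 and −0.13, and 0.10 and 0.08. By GC content of the transcript, the 26 members with the lowest values had a median of −0.20 between venetoclax and CSA and the 26 with the highest −0.50, and without venetoclax replicate 2 both were at −0.15. With each library's trend against GC content removed, the median over all 77 members was −0.34 in that contrast, 0.29 for the combination against venetoclax and −0.05 for the combination against CSA. With the trend against transcript length removed instead, it was −0.26 with 60 of 77 lower, 0.23 with 65 of 77 higher, and −0.02 with 34 higher and 43 lower. The 28 members with small nucleolar RNA genes inside their introns had a median of −0.36 between venetoclax and CSA and the 49 others −0.35, and −0.14 and −0.15 with venetoclax replicate 2 left out. None of these subsets was tested against another.

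Ribosomal proteins outside the naming rule were also measured. Of 11, 9 passed the filter and 0 were called by edgeR in any contrast (0.0% of all genes), with medians of 0.15, −0.10 and −0.24. Leaving out venetoclax replicate 2, the median for the combination against venetoclax turned to −0.03, with 4 of 9 higher, and that for venetoclax against CSA was −0.04. FAU, the fusion that encodes RPS30, was at 113 and 54.4 CPM under venetoclax, 143 and 111 CPM under CSA, and 138 and 94.4 CPM under the combination. RACK1, the scaffold protein of the 40S head, was at 678 and 467 CPM under venetoclax, 864 and 801 CPM under CSA, and 782 and 702 CPM under the combination, with venetoclax the lowest 2 libraries. Of the paralogs, RPL7L1 was at 188 to 253 CPM, RPL36AL at 137 to 160, RPL22L1 at 17.2 to 33.2, RPL26L1 at 18.5 to 26.4, RPS27L at 17.7 to 24.6 and RPL39L at 1.22 to 2.25, and RPL3L and RPL10L did not pass the filter.

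Among 17 other mRNAs with a TOP start, mostly elongation and initiation factors, edgeR called 0 in any contrast. EEF1A1, the factor that delivers aminoacyl-tRNA, was at 7306 and 4691 CPM under venetoclax, 8771 and 8245 CPM under CSA, and 9206 and 9993 CPM under the combination. EEF2, the translocation factor, was at 5723 and 3655 CPM under venetoclax, 6774 and 6427 CPM under CSA, and 6183 and 5849.6 CPM under the combination. Both had their lowest 2 values with venetoclax, as had EIF4B, an initiation factor, at 489.9 and 684 CPM under venetoclax, 722 and 726 CPM under CSA, and 837 and 804 CPM under the combination. VIM, vimentin, was at 261 and 359 CPM under venetoclax, 289 and 333 CPM under CSA, and 224 and 243 CPM under the combination and NAP1L1, a histone chaperone, at 389 and 712 CPM under venetoclax, 361 and 412 CPM under CSA, and 457 and 519 CPM under the combination. VIM and NAP1L1 were highest in venetoclax replicate 2, and with that library left out venetoclax differed from CSA by −0.26 for VIM and 0.00 for NAP1L1. The list's medians were 0.13, 0.04 and −0.03, with 11, 12 and 7 of 17 values above 0. With venetoclax replicate 2 left out they were 0.16, 0.04 and −0.12, with 14, 12 and 4 above 0.

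Of 11 genes whose symbols start with LARP or RPS6K, LARP1 was at 423 and 486 CPM under venetoclax, 439 and 437 CPM under CSA, and 452 and 465 CPM under the combination. Both combination libraries of LARP1 were above CSA and inside the range of venetoclax. RPS6KA2, a kinase of the RSK family, was at 6.61 and 2.12 CPM under venetoclax, 14.3 and 13.4 CPM under CSA, and 20.3 and 21.7 CPM under the combination. Its 3 groups did not overlap. The fold change between the combination and venetoclax was 2.24, SE 0.50 (edgeR adjusted p = 0.256), and it passed without venetoclax replicate 2 (1.67; edgeR adjusted p = 0.0491). RPS6KB1, the S6 kinase itself, was at 64.1 and 95.5 CPM under venetoclax, 62.4 and 64.2 CPM under CSA, and 44.9 and 65.8 CPM under the combination.

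Assembly factors and surveillance genes for stalled or unfinished ribosomes included no call in the fit of 6 libraries, in 23 and 14 genes tested. The assembly factors had medians of −0.02 for the combination against venetoclax and 0.13 for venetoclax against CSA. Without venetoclax replicate 2 these were 0.09 and −0.01. MDN1, the AAA ATPase that remodels the pre-60S particle, was at 191 and 275 CPM under venetoclax, 169 and 161 CPM under CSA, and 136 and 140.4 CPM under the combination, and TSR2, the chaperone of RPS26, at 21.5 and 15.7 CPM under venetoclax, 30.04 and 21.8 CPM under CSA, and 27.8 and 27.9 CPM under the combination. MDM2, the ubiquitin ligase that RPL5 and RPL11 bind, was at 64.2 and 28.7 CPM under venetoclax, 58.8 and 57.9 CPM under CSA, and 12.5 and 14.6 CPM under the combination. Both combination libraries were below the other 4, and without venetoclax replicate 2 it was called against venetoclax (−2.24; edgeR adjusted p = 0.0405) and against CSA (−2.11; adjusted p = 0.0215). CDKN1A, a p53 target, was at 4.41 and 3.08 CPM under venetoclax, 4.30 and 4.62 CPM under CSA, and 6.42 and 5.38 CPM under the combination. RPL5 and RPL11 themselves differed by 0.02 and −0.07 between the combination and CSA.

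The 13 mitochondrially encoded mRNAs, whose share set venetoclax replicate 2 apart, had a median log2 fold change of −1.66 for the combination against venetoclax and 2.33 for venetoclax against CSA, and of 0.91 and −0.17 without that library; edgeR called 0 of them. Their part in the members' values was not tested.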

How the data were processed

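RNA was measured by RNA-seq in 6 libraries. Per the labels' protocols, total RNA (Trizol) went into KAPA RNA HyperPrep libraries, read as 150 bp pairs. STAR, RSEM, DESeq2 and hg38 are named in the submitters' processing notes without versions or roles, and no source used here says whether strand was used. Whole counts, not normalized, were deposited by the authors for 20263 genes, each with a name. Of these 20148 matched a symbol and 20224 a gene of GENCODE 29. Reads of near-identical copies or of read-through genes may have been split in that counting. The table has 2 columns of per-sample values that no label used here assigns; they were not used, nor was the treatment entry of the labels, which names gavage.

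Genes passing filterByExpr were scaled by TMM and tested in edgeR 4.0.16 (robust glmQLFit and glmQLFTest, two-sided, 3 residual degrees of freedom; R 4.3.3) with Benjamini-Hochberg adjustment. CPM uses the TMM-scaled library sizes. Per-library shares were compared by exact permutation tests (scipy 1.17.1). The tests were checked on simulated counts. Libraries of a group differed by more than counting noise (chi-square over its degrees of freedom 31.5 to 846), so none was taken as a duplicate of another; technical repeats can also differ beyond counting noise. GC content and lengths come from 1 model transcript per gene in GENCODE 29, promoter starts from RefSeq.

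The members, lists and tests were chosen with earlier results of these data known. Members named were those called, the 4 highest and 4 lowest fold changes per contrast, the 3 highest and 3 lowest levels per length and a set list of members with known roles; others named were chosen after their values were seen, and some genes that these rules name are not reported here. Of 11 small nucleolar RNA host genes with a TOP start none was matched, and they were not analysed here. Alternatives were DESeq2 1.42.0, limma-voom (limma 3.58.1), other scalings and filters, a fit of 4 libraries, a replicate block, a trend against length or GC content removed (loess, span 0.3), and leaving out each library; the GC trend, the block without venetoclax replicate 2 and the coding length were added after seeing the data.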

Additional observations from a re-analysis of the deposited data

How the results depend on the processing

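The count of members called was 0 in all 3 contrasts under every alternative run except 1: without venetoclax replicate 1 edgeR called 32 members for the combination against venetoclax and 38 for venetoclax against CSA, so that over the libraries left out in turn the counts ranged from 0 to 32, from 0 to 0 (combination against CSA) and from 0 to 38. Such a fit takes the lone library of a group to be as variable as the rest. For alternatives other than leaving out a venetoclax library, the share of all genes called is not reported here. The member medians ranged from 0.079 to 0.58, from −0.17 to 0.036 and from −0.70 to −0.15. Scaled by library size alone, the medians were 0.50 and −0.60 in the 2 contrasts with venetoclax, with all-gene medians of 0.26 and −0.31, so relative to all genes the direction was the same. Of nuclear counts alone, the member share was 8.03% and 7.49% with CSA and 7.10% in combination replicate 2. With the replicate block the medians were 0.32, −0.06 and −0.38 and 0 members were called. The labels give same-numbered libraries only the number in common. Over 12455 genes their deviations correlated at 0.22 for venetoclax and CSA, 0.32 for venetoclax and the combination, and 0.19 for CSA and the combination. Whether these libraries are paired was not tested. The replicate block without venetoclax replicate 2 gave 0.16, −0.06 and −0.23, and it changed no call of a member. Among 38 members named by rule, values gained a call only without venetoclax replicate 1. No member was called in the fit of 6 libraries, so no call could reverse. With 2 libraries a group and high counts per member, the spread between libraries and not depth limits these values, and the cause of that spread was not tested.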
